A study of Mus musculus with 6 samples.

Results

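Ovarian lymphatic vessel genes are represented here by 6 genes, Lyve1, Prox1, Flt4, Vegfc, Pdpn and Reln. They were taken as every probe on the array that carries one of these gene names, which gave 6 of 31791 gene names and 7 of 39429 probes, with 2 probes for Pdpn and 1 for each other gene. The ovaries came from female C57BL/6J mice aged 20 weeks, 3 of them SeBP1 knockout (gene symbol Selenbp1, a selenium-binding protein) and 3 wild type. The sources used here do not give how the SeBP1 allele was made or which cells lack it, and give no treatment for either genotype. Cy3-labelled RNA of each ovary sample was read on its own Agilent mouse array. Separate animals are not stated for the arrays, so a p-value covers the spread among these 6 samples only, which may be technical.

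Lymphatic vessels drain fluid and immune cells from tissue, and in the ovary they run mainly in the medulla and around growing follicles and corpora lutea. Their endothelial cells are specified by the transcription factor PROX1, which keeps up expression of the receptor VEGFR3 (the product of Flt4), and they grow toward its ligand VEGFC. LYVE1, a hyaluronan receptor, and podoplanin, a membrane glycoprotein encoded by Pdpn, are surface markers of these cells, and reelin, encoded by Reln, is a secreted glycoprotein that they also make. Of the 6 genes, Prox1 is the defining one. LYVE1 is also carried by subsets of tissue macrophages, and podoplanin by mesothelium and stromal cells, so in whole ovary neither reads lymphatic endothelium alone.

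All 7 probes are 60 bases long. In mouse build mm9, per the file headers, they lie on chromosome 7 at 117994171 to 117994230 for Lyve1, chromosome 1 at 191945785 to 191945844 for Prox1, chromosome 11 at 49465646 to 49465705 for Flt4 and chromosome 8 at 55271533 to 55271592 for Vegfc. The remaining probes lie on chromosome 4 at 142857339 to 142857398 and at 142858329 to 142859146 for Pdpn, and on chromosome 5 at 21404915 to 21404974 for Reln. The 6 genes thus lie on 6 different chromosomes. The second Pdpn probe covers 818 genomic bases with 60 bases of sequence, so it crosses a splice junction, and it serves as a second reading of Pdpn. The Reln probe lies far from the start of a long transcript, at position 10112, and is the single reading of that gene. These 2 probe sequences, from the scanner files, are shown because the Pdpn and Reln results below turn on them, both on the minus strand of mm9.
Pdpn junction probe, chr4:142858329-142859146: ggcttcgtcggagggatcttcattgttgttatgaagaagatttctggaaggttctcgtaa
Reln probe, chr5:21404915-21404974: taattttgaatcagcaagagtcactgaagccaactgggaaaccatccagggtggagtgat
The other 5 probes lie 1605 to 5243 bases into their transcripts per the files, and the exons they fall in were not worked out here.

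Between 61.6% and 69.3% of spots on an array were well above background, the scanner software's call that a spot's signal stands clear of the local background. Levels below are log2 of the processed spot intensity minus the 75th percentile of all non-control spots on the same array, so a level of 0 is that percentile, and levels of different probes are not compared. Testing was limited to the 24415 probes for which either genotype had 3 of 3 arrays well above background. Selenbp1, the gene knocked out, had a level of -0.15 ± 0.20 in knockout and 2.60 ± 0.075 in wild type (SD, n = 3 each; difference -2.75, adjusted p = 0.0104 by limma). It was the 1 probe called at an adjusted p under 0.05, which is 0.0041% of the probes tested. All 9 genes of an ovary list of oocyte, granulosa and theca markers were kept, among them Gdf9, Zp3, Amh and Cyp17a1. The arrays lay on 2 slides. All 3 knockout arrays and wild type replicate 3 shared a slide, and wild type replicates 1 and 2 lay on the other. Within a slide, the genotypes can therefore be compared only against 1 wild type array. That array, wild type replicate 3, had the fewest spots well above background (61.6%) and the lowest 75th percentile of intensity (1309). In that comparison the slide and the quality of this array cannot be told apart.

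The lymphatic markers were detected unevenly. Lyve1, Vegfc and both Pdpn probes were well above background on all 6 arrays, Flt4 on 5, Reln on 1 and Prox1 on 0. Of the 7 probes, 5 were therefore tested, for 4 of the 6 genes. No member was called in either direction, against 0.0041% of all probes tested. The groups overlapped in all 7 probes, while they did not overlap in 8.96% of tested probes (4.75% lower and 4.21% higher in knockout). Prox1, the defining gene of lymphatic endothelium, was thus not measured above background in any of these ovaries, and the tested genes include Lyve1, Pdpn and Vegfc, which other cells also express. In a wider list of 9 lymphatic endothelial markers, 7 were kept, with 6 lower and 1 higher in the knockout mean, and its summed signal, in units of the 75th percentile, was 42.8 to 59.0 in knockout and 43.5 to 54.5 in wild type. Ccl21a made up 68.9% to 81.0% of that sum, and without it the sum was 11.2 to 13.3 in knockout and 10.9 to 13.5 in wild type.

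**Figure D1:**
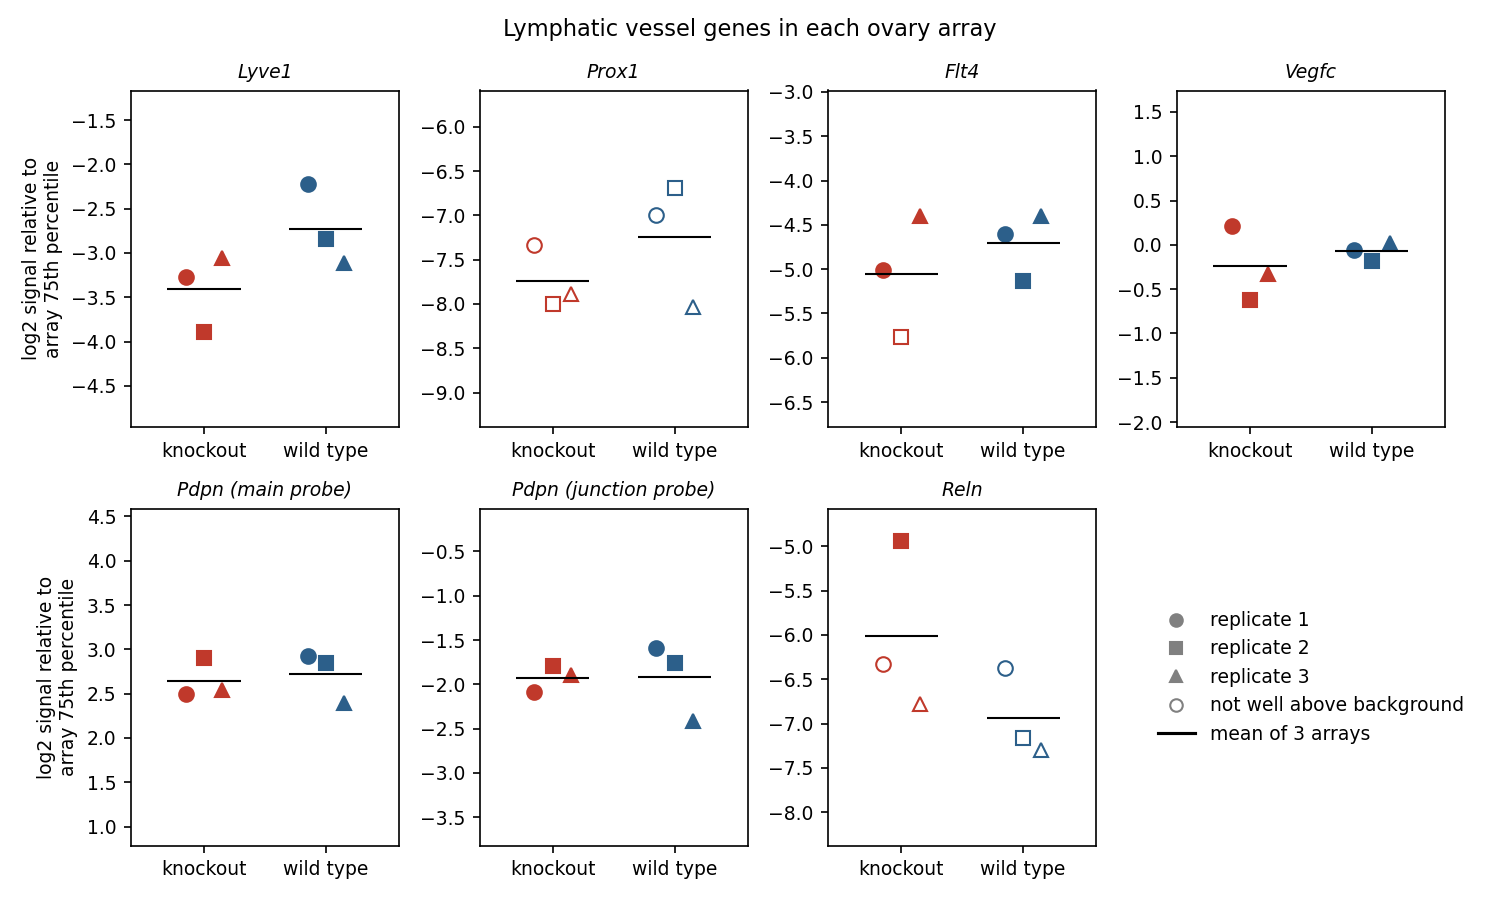
Level of each of the 7 probes on each array, as log2 of the signal over that array's 75th percentile (vertical axis, the same span in every panel), for knockout (left, red) and wild type (right, blue), with replicates by symbol, open symbols where the probe was not well above background and a line at the mean of 3 arrays. Knockout and wild type overlap in every panel, all Prox1 symbols are open, and Flt4 is open in knockout replicate 2.

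Prox1, the transcription factor that sets lymphatic endothelial fate, read at the level of the background in every ovary. Its processed intensity was 10.2, 5.84 and 6.99 in knockout replicates 1 to 3, against 13.7, 15.4 and 4.995 in wild type replicates 1 to 3. In log2 terms its probe read 0.65 to 2.33 below the lowest signal that was well above background on the same array. No fold between the genotypes can be given, since both are bounds.

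Lyve1 had the difference farthest from 0 of the 4 members tested, and it did not pass the test. Its level was -3.27, -3.89 and -3.06 in knockout replicates 1 to 3, against -2.22, -2.84 and -3.12 in wild type replicates 1 to 3. The highest knockout array lay just above the lowest wild type array, and the other 2 knockout arrays lay below all 3 wild types. The means were -3.41 ± 0.43 in knockout and -2.73 ± 0.46 in wild type (SD, n = 3 each), a difference of -0.68 with a 95% interval from -1.41 to 0.049 (limma, adjusted p = 1.00). On a linear scale this is 0.624 of the wild type signal, with an interval from 0.376 to 1.03. A difference at least as far from 0 was seen in 3.07% of all probes tested. In whole ovaries, fewer cells that carry a transcript and less of it per cell cannot be told apart.

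The size of the Lyve1 difference depended on which arrays were compared. Within the slide shared by both genotypes, the 3 knockouts differed from wild type replicate 3 by -0.29. That wild type array had the fewest spots well above background. Leaving out wild type replicate 1 gave -0.43, and leaving out knockout replicate 2 gave -0.44. The sign was negative in all 17 alternatives run, between -0.88 and -0.29, but these are not separate tests. All use the same 6 arrays or part of them. With no filter, with all 6 arrays well above background and with the replicate block, the estimate was -0.68, as in the main fit. Slide as a fixed block and the shared slide alone gave the same -0.29. Wild type replicate 1, the array highest in Lyve1, was also the array highest in the adipocyte, mesothelial and smooth muscle marker lists given below. It was highest too in the ovary list, with a median of 0.32 relative to the mean of 6 arrays. The same held for the wider lymphatic endothelial list, which includes Lyve1, at 0.24. In the macrophage, blood vessel and oviduct lists another array was highest.

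Flt4, the receptor for VEGFC, was dim and spread as widely within a genotype as between them. Its level was -5.01, -5.77 and -4.40 in knockout replicates 1 to 3, against -4.60, -5.13 and -4.40 in wild type replicates 1 to 3. Knockout replicate 2 was the lowest array and was not well above background, while knockout replicate 3 read the same as the highest wild type to 2 decimals. The difference was -0.35, with a 95% interval from -1.24 to 0.54 (limma, adjusted p = 1.00), with 0.0066 without knockout replicate 2, 0.22 with array weights, -0.68 without knockout replicate 3 and -0.66 on the shared slide alone. Across 12 to 21 probes of similar intensity that were spotted repeatedly, the median SD between spots of one probe on one array was 0.075 to 0.24 on the log2 scale at the level of Flt4. At the level of Lyve1 it was 0.048 to 0.096, so the SD of 0.69 among knockouts and of 0.38 among wild types for Flt4, and of 0.43 and 0.46 for Lyve1, was larger than the scatter of spots.

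Vegfc, the ligand that drives lymphatic growth through VEGFR3, overlapped between the genotypes and spread more widely in knockout (SD 0.42, against 0.10 in wild type, n = 3 each). Its level was 0.22, -0.62 and -0.32 in knockout replicates 1 to 3, against -0.061, -0.18 and 0.021 in wild type replicates 1 to 3. The knockouts held both the highest and the lowest of the 6 values, with all wild types between them. The difference was -0.17, with a 95% interval from -0.69 to 0.36 (limma, adjusted p = 1.00), and it was 0.020 without knockout replicate 2, -0.40 without knockout replicate 1 and -0.26 on the shared slide alone.

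Pdpn was read by 2 probes, and neither gave a difference past the test. The main probe read 2.50, 2.90 and 2.55 in knockout replicates 1 to 3, against 2.92, 2.84 and 2.40 in wild type replicates 1 to 3. The junction probe, whose sequence is given above, read -2.08, -1.79 and -1.89 in the knockouts, against -1.59, -1.75 and -2.42 in the wild types. On both probes wild type replicate 3 was the lowest of the 6 arrays and wild type replicate 1 the highest. The differences were -0.072 (95% interval -0.52 to 0.38) and -0.0038 (-0.56 to 0.55), each with an adjusted p of 1.00 by limma. Across the 6 arrays the 2 probes had a Pearson's r of 0.896 (exact permutation p = 0.00278, two-sided) and a Spearman's rho of 0.943 (exact permutation p = 0.0167), and r was 0.866 without the 2 arrays farthest from the median of the main probe. Against wild type replicate 3 alone, on the shared slide, the knockout differences were 0.25 and 0.49, of the opposite sign to the full comparison.

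Reln was well above background on 1 array, knockout replicate 2. Its processed intensity was 20.5, 48.6 and 15.1 in knockout replicates 1 to 3, against 21.3, 11.0 and 8.34 in wild type replicates 1 to 3. The other 5 arrays gave readings below the lowest signal that was well above background on their own array, by 0.13 to 1.59 on the log2 scale. The level of knockout replicate 2, -4.94, was 0.74 above that limit. Taken over all 3 knockouts, the signal did not exceed the wild type limit, so no fold is given. Knockout replicate 2 was the same array on which Lyve1 and Flt4 were lowest.

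**Figure D2:**
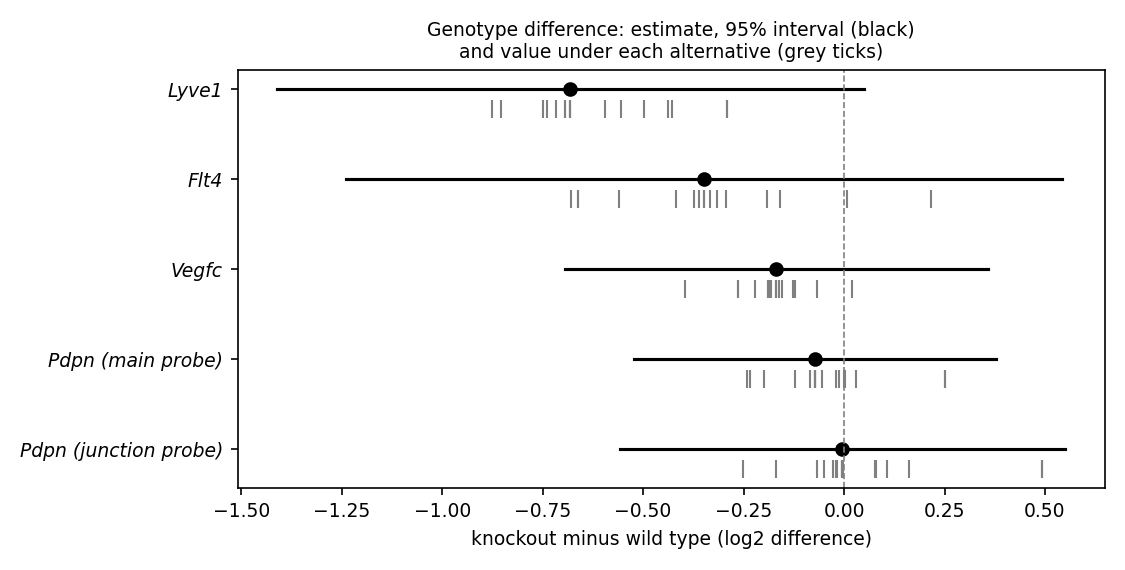
Knockout minus wild type difference in log2 level (horizontal axis) for the 5 tested probes, with the estimate (black point), its 95% interval from limma (black line) and the value under each alternative processing or with 1 array left out (grey ticks). All 5 intervals include 0, and the Lyve1 ticks stay below 0 while those of the other probes lie on both sides.

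No pair of members was correlated across the 6 ovaries past the test. Among the genes measured on every array, Pearson's r was 0.47 for Lyve1 and Vegfc (exact permutation p = 0.331), 0.17 for Lyve1 and Pdpn (exact permutation p = 0.719) and -0.53 for Vegfc and Pdpn (exact permutation p = 0.288), two-sided. Spearman's rho was 0.086 (exact permutation p = 0.919), 0.37 (p = 0.497) and -0.54 (p = 0.297) for the same pairs. Over the 3 pairs the smallest adjusted p was 0.496 for r and 0.746 for rho. Without the 2 arrays farthest from the median of the first gene, r over 4 arrays was -0.71 (exact permutation p = 0.292), 0.83 (p = 0.208) and -0.073 (p = 0.958). The sign for Lyve1 and Vegfc thus changed. With 4 arrays, picked by the values of the gene itself, this cannot show what the sign rested on.

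Flt4 was added to the pairs after its dim array had been seen, with its value on all 6 arrays. It had an r of 0.63 with Lyve1 (exact permutation p = 0.181), 0.52 with Vegfc (p = 0.307) and -0.57 with Pdpn (p = 0.201), and the smallest adjusted p over these 6 pairs was 0.397. Its rho was 0.31 with Lyve1 (exact permutation p = 0.564), 0.43 with Vegfc (p = 0.419) and -0.54 with Pdpn (p = 0.297). Knockout replicate 2 held the lowest value of Lyve1, Flt4 and Vegfc. Without the 2 arrays farthest from the median the r of Lyve1 and Flt4 was -0.23. As deviations from the genotype means, r was 0.57 for Lyve1 and Flt4 and 0.36 for Lyve1 and Vegfc. On the 4 arrays of the slide with both genotypes, examined after the data had been seen, r was 0.97 for Lyve1 and Flt4, 0.65 for Lyve1 and Vegfc, -0.93 for Lyve1 and Pdpn, 0.51 for Flt4 and Vegfc, -0.89 for Flt4 and Pdpn and -0.84 for Vegfc and Pdpn. The smallest adjusted exact permutation p over these 6 pairs was 0.25, and the other slide holds 2 arrays, too few for a value. At r = 0.97 the exact permutation p was 0.083 before adjustment, so with 4 arrays this test can hardly pass at any r.

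**Figure D3:**
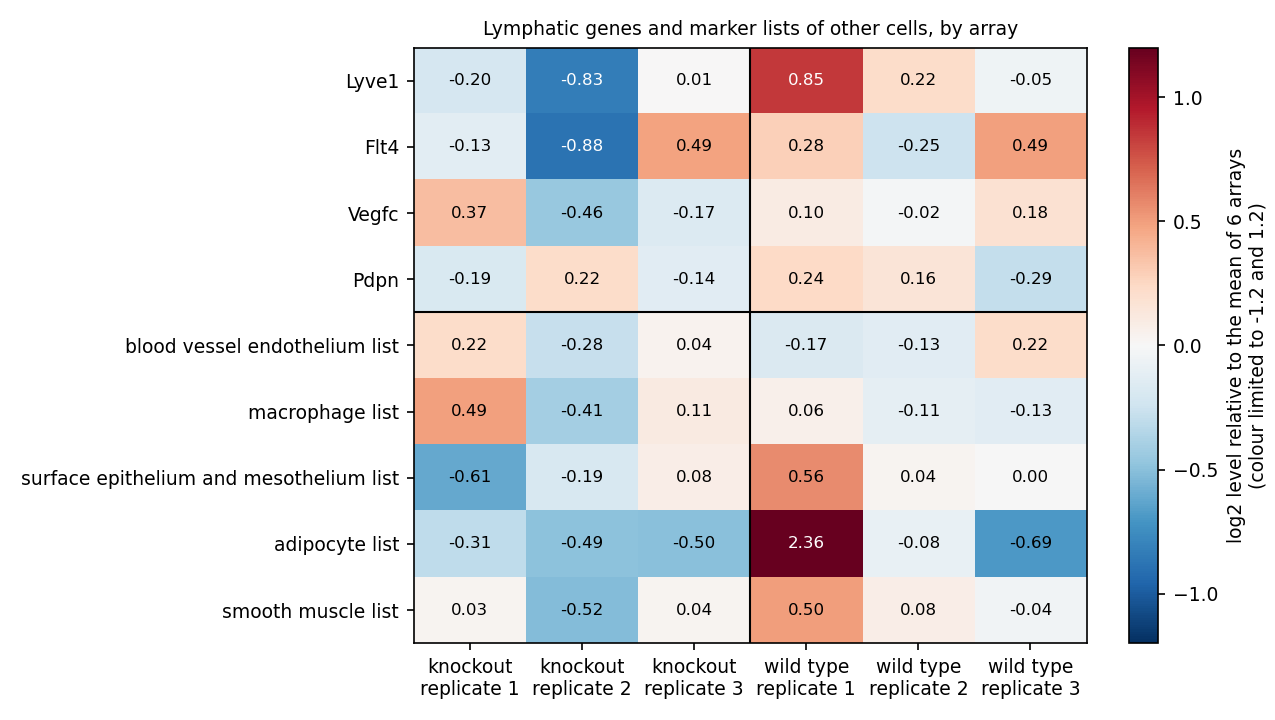
Log2 level relative to the mean of the 6 arrays (colour and printed number) for Lyve1, Flt4, Vegfc and the main Pdpn probe (above the line) and, below it, for the median of 5 marker lists of other cells, on the 3 knockout arrays (left) and the 3 wild type arrays (right). Lyve1 is highest at 0.85 in wild type replicate 1, where the adipocyte list is at 2.36, and lowest at -0.83 in knockout replicate 2.

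Markers of cells that share these genes, or that a dissected ovary can carry, differed between arrays, and their part in the member results was not tested. The macrophage list had 7 of 8 genes kept and a median relative to the mean of 6 arrays of 0.49, -0.41 and 0.11 in knockout replicates 1 to 3, against 0.064, -0.11 and -0.13 in the wild types. Its summed signal, in units of the 75th percentile, ran from 4.89 to 8.12 in knockout and from 5.88 to 6.52 in wild type, and Cd163 was well above background on 0 of 6 arrays. The median knockout minus wild type difference of the macrophage list was 0.18, or -0.019 without knockout replicate 1, with 5 genes higher and 2 lower in the knockout mean. Surface epithelium and mesothelium, which carry podoplanin, had 8 of 8 genes kept. The mesothelial median was -0.61, -0.19 and 0.081 in the knockouts, against 0.56, 0.036 and about 0 in the wild types, with summed signals of 14.2 to 25.1 and 21.8 to 32.9. All 8 mesothelial genes had a lower knockout mean, with a median difference of -0.39, or -0.16 without knockout replicate 1 and -0.19 without wild type replicate 1.

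The adipocyte list, with 3 of 6 genes kept, stood at -0.31, -0.49 and -0.50 in the knockouts, against 2.36, -0.085 and -0.69 in the wild types. Its summed signal was 1.31 to 2.09 in knockout and 1.15 to 8.89 in wild type, and Lep was well above background on 0 of 6 arrays. Adipoq and Cidec were not kept either. In wild type replicate 1 they read 0.16 and -0.17, against -7.51 to -4.39 and -8.86 to -3.65 on the other arrays. The smooth muscle list, 5 of 5 kept, was at 0.031, -0.52 and 0.036 in the knockouts, against 0.50, 0.075 and -0.043 in the wild types, with sums of 19.6 to 30.0 and 26.2 to 33.7. All 5 smooth muscle genes had a lower knockout mean, with a median difference of -0.41, which was -0.21 without knockout replicate 2 or without wild type replicate 1 and -0.042 on the shared slide alone. Oviduct markers, 4 of 5 kept, were at -1.13, -0.18 and -2.25 in the knockouts, against -0.28, 2.93 and 0.68 in the wild types, with sums of 0.250 to 0.761 and 0.579 to 29.3, of which Ovgp1 made up 31.3% to 96.9%. Agr2 was kept through wild type alone and was well above background on 0 knockout arrays, so its knockout values were background readings. The median difference of this list was -2.49, or -1.93 where all 6 arrays had to be well above background. Blood vessel endothelium, 8 of 8 kept, was at 0.22, -0.28 and 0.039 in the knockouts, against -0.17, -0.13 and 0.22 in the wild types, with sums of 14.7 to 20.1 and 15.5 to 21.8. No gene of these lists was called. The groups did not overlap in Cd68 of the 7 kept macrophage genes (difference 0.76) and Lrrn4 of the 8 mesothelial genes (-1.02). They did not overlap either in Myh11 of the 5 smooth muscle genes (-0.41) and Agr2 of the 4 oviduct genes. For Agr2 this follows from its background readings in knockout. In the ovary list of 9 kept genes, Foxl2 did not overlap (-0.19). Over all tested probes 8.96% did not overlap, so these few genes are not read as a result about the lists.

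Genes that work with the members were set beside them in 7 lists by role, 71 genes in all, of which 69 had a probe under their name and 63 were kept. None of the 63 was called, against 0.0041% of all probes tested, and 1 had an unadjusted p under 0.05, or 1.59%, against 3.95% of all probes. The mean was lower in knockout for 36 and higher for 27, that is 57.1% lower, where 54.3% of all probes were lower. Their median difference was -0.023, and that of all probes was -0.017.

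**Figure D4:**
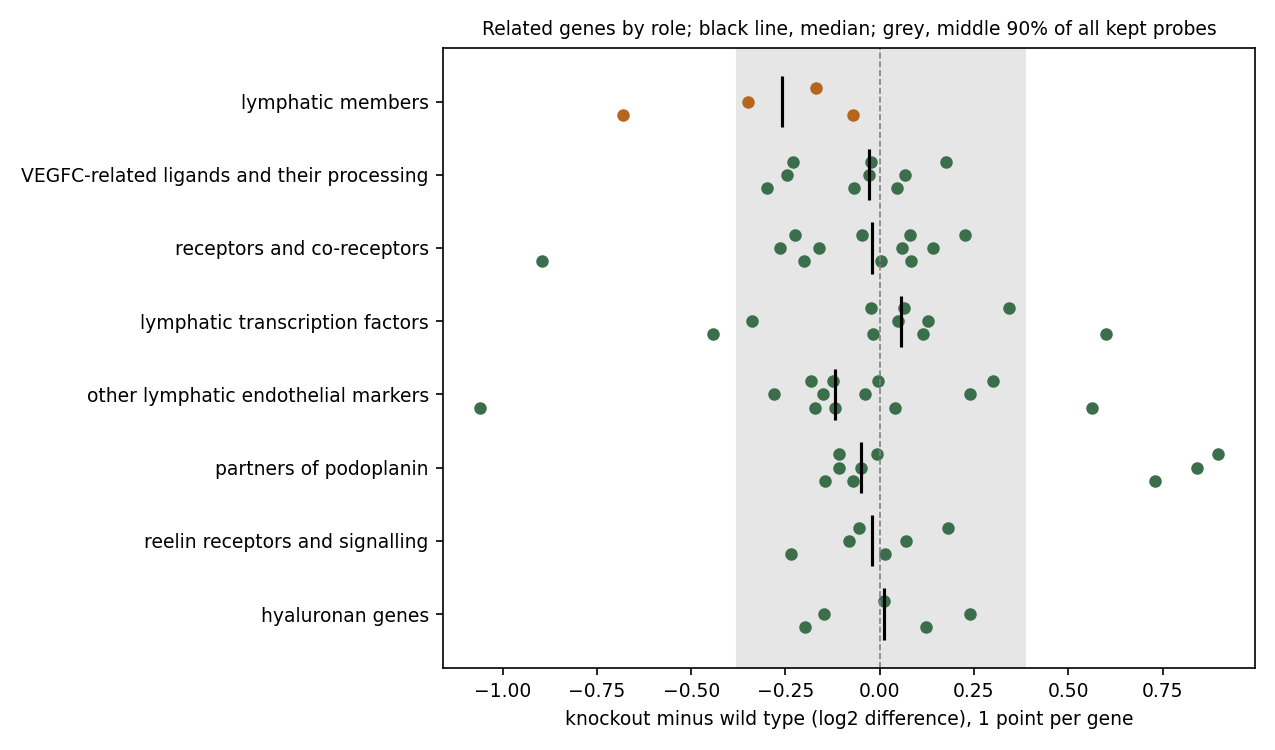
Knockout minus wild type difference in log2 level (horizontal axis) for each kept gene (points) of the lymphatic members and of 7 lists of related genes (rows), with the median of each list (black line) and the range between the 5th and 95th percentiles of all tested probes, from -0.38 to 0.39 (grey). Most points lie in the grey range, and Lyve1 at -0.68 is the leftmost member.

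Ligands of the VEGF family and the proteins that mature VEGFC showed no called difference, with 9 of 10 kept, 6 lower and 3 higher in the knockout mean and a median of -0.028. Figf, the gene of VEGFD, the other ligand of VEGFR3, was at -0.97, -1.64 and -1.16 in knockout replicates 1 to 3, against -0.88, -0.96 and -1.03 in the wild types. Knockout replicate 2 was lowest for Figf, as for Vegfc, and its difference was -0.30 (95% interval -0.74 to 0.14). Ccbe1, a secreted protein that VEGFC needs for its cleavage, differed by -0.028 (-0.37 to 0.32). Furin, a protease that cuts the VEGFC precursor, differed by -0.069. Adamts3, the protease that completes that cleavage with CCBE1, was well above background on 0 of 6 arrays.

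Receptors and co-receptors had 12 of 13 kept, 6 on each side of 0, with a median of -0.022. Kdr, which encodes VEGFR2, differed by 0.081 (95% interval -0.23 to 0.39), and its other probe was at -0.16. Nrp2, a co-receptor for VEGFC on lymphatic endothelium, had levels of 1.97 ± 0.12 in knockout and 2.02 ± 0.061 in wild type (SD, n = 3 each), and differed by -0.048 (-0.31 to 0.22). Nrp1, its relative on blood vessels and neurons, differed by 0.060. Itga9, an integrin of lymphatic valves, differed by -0.22. Tek, the angiopoietin receptor, differed by 0.14 and its ligand gene Angpt2 by -0.16. Adm, which encodes adrenomedullin, a peptide that promotes lymphatic growth, differed by -0.26 with a 95% interval from -1.90 to 1.38. Calcrl, its receptor, was well above background on 1 knockout and 2 wild type arrays and was not tested.

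Transcription factors of lymphatic development were all 10 kept, with 6 higher and 4 lower in the knockout mean and a median of 0.056. Sox18, which switches on Prox1 in the embryo, differed by 0.12 (95% interval -0.32 to 0.55). Nr2f2, a partner of PROX1 in venous and lymphatic cells that stroma also expresses, differed by 0.049 (-0.33 to 0.43). Foxc2 and Gata2, which act in lymphatic valves, differed by -0.34 (-0.88 to 0.20) and -0.44 (-1.06 to 0.17). In both of these genes knockout replicate 2 was the lowest array, and the groups overlapped.

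Among other lymphatic endothelial markers 13 of 14 were kept, 9 lower and 4 higher in the knockout mean, with a median of -0.12. Ccl21a is one of the gene copies for CCL21, the chemokine with which lymphatic vessels draw in dendritic cells. Its level was 5.11, 4.88 and 5.58 in the knockouts, against 5.36, 5.20 and 5.02 in the wild types. The difference was -0.0037 (95% interval -0.49 to 0.48), and that of Ccl21b, added as its copy, was -0.039. These genes are near-identical copies, so their probes may read each other's transcripts. Mmrn1, a secreted multimerin made by lymphatic endothelium and platelets, was at -1.11, -1.08 and -0.92 in the knockouts, against -0.59, -0.93 and -1.14 in the wild types, a difference of -0.15 (-0.54 to 0.24). Stab2, a hyaluronan scavenger receptor, differed by 0.24. Mmrn1, like Lyve1, was highest in wild type replicate 1, while Ccl21a was highest in knockout replicate 3.

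Stab1, a scavenger receptor of macrophages and lymphatic endothelium, is named because of its values. It was at -2.73, 0.27 and 0.69 in the knockouts, against 0.51, 0.31 and 0.58 in the wild types. A single array, knockout replicate 1, set its mean difference of -1.06, whose 95% interval ran from -3.13 to 1.01.

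Genes that bind or follow the members' products also gave no call. Partners of podoplanin had 9 of 10 kept, 6 lower and 3 higher, with a median of -0.049. Among the higher genes, Lcp2 was kept through knockout alone, with 3 knockout arrays and 1 wild type array well above background. Its wild type mean thus rests partly on background readings, and it is also among the 27 related genes counted as higher above. Clec1b, the platelet receptor CLEC-2 through which podoplanin keeps blood and lymph apart, differed by -0.11 (95% interval -1.13 to 0.91), and its other probes were at -0.17 and -0.11. Ccr7, the receptor for CCL21 and CCL19 on immune cells, was the 1 gene of the 63 whose groups did not overlap, and it is named for that reason. Its level was -3.37, -3.70 and -3.04 in the knockouts, against -4.01, -3.93 and -4.86 in the wild types, a difference of 0.90 (0.19 to 1.61; limma, adjusted p = 1.00). Over all tested probes 8.96% did not overlap, against 1.59% here.

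Reelin receptors and signalling had 6 of 7 kept, 3 on each side, with a median of -0.020. Vldlr and Lrp8, the reelin receptors, differed by -0.054 (95% interval -0.71 to 0.60) and -0.080 (-1.96 to 1.80), and Dab1, the adaptor both receptors use, by 0.18 (-0.26 to 0.62). Hyaluronan genes had 5 of 8 kept, 3 higher and 2 lower, with a median of 0.012, or 0.25 on the shared slide alone. Cd44, a hyaluronan receptor related to LYVE1, differed by 0.12 on its main probe and 0.30 on the other. Has2, a hyaluronan synthase of the cumulus, was well above background on 1 knockout and 0 wild type arrays and was not tested.

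The genes most like Lyve1 and Flt4 across the 6 arrays were named by Pearson's r to the mean of their centred levels, which was -0.16, -0.85 and 0.25 in knockout replicates 1 to 3, against 0.56, -0.012 and 0.22 in the wild types. They were Net1, which encodes a guanine nucleotide exchange factor (r = 0.993), Bnip2 (0.992), Cuedc1 (0.991), the transcription factor gene Nfib (0.990) and Bco2, a carotenoid-cleaving enzyme gene (0.990). Of 24180 tested probes with a value on every array, 196 had an r over 0.9, and with 6 arrays and so many probes such values are a description only. Net1 was at -2.86, -3.40 and -2.52 in the knockouts, against -2.38, -2.81 and -2.63 in the wild types. Knockout replicate 2 was the lowest array of Net1, which follows from its choice by r to a mean that is lowest there.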

How the data were processed

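Single-colour arrays of 6 ovary samples were analysed, grouped by the genotype in the labels. Per the file headers, the authors read the arrays with Feature Extraction 10.7.1.1, which gave each spot a processed linear intensity with background subtracted inside its array and no scaling across arrays. That software replaces the lowest signals by surrogate values, and whether any reading of Prox1 or Reln is such a value was not checked here. A deposited table of the whole series also holds intensity with a median of 119.8 in every column, so its arrays were normalized to each other by a method not given in the sources used here. Its scale is linear, it is not centred by gene, and it served as an alternative.

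Of 43020 non-control spots per array, 192 to 459 outlier spots were left out and spots of a probe were averaged on the log2 scale. The 75th percentile of intensity was 1309 to 1759, and no spot was saturated. The genotypes were compared by limma (version 3.58.1, lmFit with eBayes, R 4.3.3) in a two-sided test with Benjamini-Hochberg adjustment over 24415 kept probes at 0.05. This code was tested on simulated data. Values with fewer than 10 samples outside that fit have exact permutation p-values. The number of arrays limits precision. Intervals are 95% intervals of the moderated fit. Each gene was represented by its kept probe of highest mean. Gene names are those of the files.

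The members and lists were chosen with earlier results of these data known. Named genes were the members, Selenbp1, a fixed set of 26 related genes (1 of them is not reported here), any called gene of a list, and the 5 genes most like Lyve1 and Flt4 by r. Stab1, Ccr7, Lcp2 and Angpt1 were named outside this rule, after their values had been seen, and Ccl21b as the copy of Ccl21a. Adipoq, Cidec, Agr2, Cd68, Lrrn4, Myh11 and Foxl2 of the marker lists were also named after their values had been seen. Replicate numbers are shared by the genotypes, but were not taken as pairs. Deviations from the genotype means correlated at -0.33, 0.30 and -0.027 for the 3 same-numbered pairs. For pairs with different numbers the values were -0.30 to 0.36, so so few arrays cannot tell whether the samples are paired. Python 3.11.15, pandas 2.3.3, numpy 2.4.6, scipy 1.17.1 and matplotlib 3.10.9 were used for tables, permutations and plots.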

Additional observations from a re-analysis of the deposited data

How the results depend on the processing

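No member and no gene of the lists was called under any of the 17 alternatives: other background correction, scaling or filters, the series table, slide, replicate or array-weight terms, or 1 array left out. The smallest adjusted p of Lyve1 was 0.363 (array weights). With the replicate block the Lyve1 difference was -0.68 (adjusted p = 0.992) and the other members stayed uncalled, and 0 probes were called. The count of probes called lower was also 0 with no filter on background, with slide as a fixed block and on the slide with both genotypes alone, while array weights called 4 higher and 2 lower. Leaving out 1 array gave 0 to 18 called lower and 0 to 1 higher, with 18 and 1 reached without wild type replicate 3. Member differences over the arrays left out ran from -0.88 to -0.43 for Lyve1, -0.68 to 0.0066 for Flt4, -0.40 to 0.020 for Vegfc, -0.23 to 0.029 for the main Pdpn probe and -0.25 to 0.16 for its junction probe. The sign turned for Pdpn with slide as a fixed block and on the shared slide alone (0.25 on the main probe, 0.49 on the junction probe) and for the junction probe with slide as a random block (0.11). It turned for Flt4 with array weights (0.22). On the shared slide alone 7 of 15 list medians moved by more than the spread within genotypes: 0.10 for other lymphatic endothelial markers, 0.19 for podoplanin partners, 0.25 for hyaluronan genes, -0.23 for blood vessel endothelium, 0.70 for adipocyte, -0.042 for smooth muscle and 0.39 for ovary markers, against -0.12, -0.049, 0.012, 0.066, -0.87, -0.41 and -0.18 over all arrays. The cause was not tested, and the single wild type array there, replicate 3, had the fewest spots well above background. With no filter Prox1 and Reln would enter the fit as background readings, and they are not reported as differences. Flt4 gave no value where all 6 arrays had to be well above background. Without the 2 arrays farthest from the median, r changed sign for Lyve1 and Vegfc (-0.71), Lyve1 and Flt4 (-0.23) and Flt4 and Vegfc (-0.52), and on the shared slide alone, added after the data had been seen, for Lyve1 and Pdpn (-0.93). Signal over background limits Prox1, Reln and Flt4.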

Other observations

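The related genes were not lowest evenly over the arrays. Of the 63 kept related genes, 25 (39.7%) had their lowest level in knockout replicate 2. Among all tested probes with a value on every array, 21.5% were lowest there. Knockout replicate 2 was highest for 5 (7.94%, against 22.5%). Knockout replicate 1 was lowest for 4 (6.35%, against 18.8%) and highest for 18 (28.6%, against 12.9%), and knockout replicate 3 was lowest for 7 (11.1%, against 16.2%). Wild type replicate 2 was lowest for 8 (12.7%, against 6.03%) and highest for 3 (4.76%, against 13.0%). Wild type replicate 1 was lowest for 4 (6.35%, against 12.7%) and wild type replicate 3 for 15 (23.8%, against 24.8%). Genes lowest in knockout replicate 2 included Figf, Foxc2, Gata2 and Clec1b among those named above, beside Lyve1, Flt4 and Vegfc. This was counted after the values had been seen, and the genes are not independent of each other.

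Angpt1, named because of its values, which encodes a ligand of the TEK receptor, had a level of -1.71, -2.57 and -2.08 in knockout replicates 1 to 3, against -1.79, -1.74 and -0.15 in wild type replicates 1 to 3. Wild type replicate 3 stood apart from the other 5 arrays, and the difference of -0.90 had a 95% interval from -2.05 to 0.26.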
